A study of Mus musculus with 2 samples.

Results

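Ccl6, Ccl9 and Cxcl16 are chemokine genes that were read in both libraries of a culture of mouse bone marrow derived macrophages. They are described here across the marker-gated cell types of that culture and between its treated and untreated library. They were chosen by symbol, as 3 of the 31053 genes in the count tables. No measured value entered the rule, but earlier results of these data were known when they were chosen.

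The cells were grown from the bone marrow of wild-type 129Sv mice with 10% serum (FBS) and 50 ng/ml M-CSF, the cytokine on which macrophages depend for growth and survival. On day 7, cells received 1 µg/ml of a truncated, non-polymerizing form of Tamm-Horsfall protein (THP, or uromodulin, a protein secreted by the kidney tubule). The controls received the vehicle, 5% dextrose, and both were left for 18 hours. Each condition was read as 1 Chromium droplet library, in which a barcode marks the cell of each captured RNA molecule and a second tag, the unique molecular identifier (UMI), marks the molecule. With 1 library per condition there was no replicate check and no test, and treatment cannot be told apart from dish, animal or library preparation. All intervals below are 95% intervals that cover counting error only.

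Chemokines are small secreted proteins that guide leukocytes through receptors on the cell surface. Ccl6 and Ccl9 encode rodent CC chemokines of macrophages and granulocytes that act through the receptor Ccr1, and Ccl9 is also made by osteoclasts. Cxcl16 encodes an unusual chemokine that is made as a transmembrane protein on a mucin-like stalk. In that form it binds oxidized lipoprotein and cells that carry its receptor Cxcr6, and the proteases Adam10 and Adam17 cut it from the surface to give the soluble chemokine. All 3 are commonly found in resting macrophages, unlike chemokines that are made mainly upon stimulation.

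In the GENCODE M21 annotation of GRCm38, the 3 genes lie on the minus strand of chromosome 11. Ccl6 (ENSMUSG00000018927) spans chr11:83587882-83593087 and Ccl9 (ENSMUSG00000019122) spans chr11:83572919-83578636, so that 9245 bases separate the neighbours. Cxcl16 (ENSMUSG00000018920) spans chr11:70453983-70459984, apart from that chemokine cluster. The longest annotated transcripts have 1440 bases for Ccl6, 3006 for Ccl9 and 2699 for Cxcl16. The transcripts of the neighbours share no exact run longer than 25 bases. Cxcl16 overlaps Zmynd15, a gene on the opposite strand, over 552 bases. Zmynd15 had 971 UMIs with THP and 411 with vehicle. The strand setting of the counting, not given in the sources used here, decides whether reads of the overlap could be told apart.

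The bases upstream of the neighbours Ccl6 and Ccl9 are shown because these genes were measured in partly the same cells. They are the 250 bases before the annotated start in RefSeq's promoter entries (GRCm38.p6, minus strand, written 5′ to 3′), at chr11:83593088-83593337 for Ccl6 and chr11:83578637-83578886 for Ccl9. Of the 3 genes, 2 had an entry. Capitals mark the ungapped block that a local alignment of these 250-base sequences found.
Ccl6: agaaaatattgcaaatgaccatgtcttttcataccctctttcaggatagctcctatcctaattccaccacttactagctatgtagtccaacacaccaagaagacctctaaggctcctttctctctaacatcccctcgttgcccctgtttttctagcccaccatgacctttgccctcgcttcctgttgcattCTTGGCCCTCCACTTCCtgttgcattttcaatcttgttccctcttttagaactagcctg
Ccl9: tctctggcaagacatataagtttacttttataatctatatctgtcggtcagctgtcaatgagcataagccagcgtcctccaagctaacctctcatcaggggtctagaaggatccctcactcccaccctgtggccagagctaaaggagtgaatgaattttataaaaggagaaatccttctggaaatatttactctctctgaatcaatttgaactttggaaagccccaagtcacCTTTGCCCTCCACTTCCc
The block had 17 bases, of which 16 were identical. The difference was G4T, counted from the 5′ end of the block and written from Ccl6 to Ccl9. The block lay 59 to 43 bases before the start of Ccl6 and 18 to 2 bases before that of Ccl9. When the whole 300-base entries were aligned, which run 50 bases past the start, the likeness extended to 67 aligned pairs with 59 identical (88.1%) and 7 unpaired bases. The letters GGAAGT, the core bound by Ets factors such as PU.1, were found once in each sequence, in both cases on the opposite strand and inside the block, and 19.7% of the 32851 promoter entries hold them on either strand in the same window. The letters TGANTCA, an AP-1 pattern with any middle base, were found once upstream of Ccl9, as TGAATCA, and not upstream of Ccl6 (6.75% of entries). The middle A of this match is not the C or G of the usual AP-1 site. Neither sequence held TTGCNNAA for C/EBP (9.56%) or TTCNNNGAA for STAT factors (7.02%), which says only that these letters are not in this window. The letters TATAAATA stood 66 bases after the annotated start of Ccl6 and 103 bases after that of Ccl9, and 0.15% of 58695 protein-coding transcripts hold them in their first 150 bases.

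After the cell filter, 12123 THP cells with 224825484 UMIs and 10978 vehicle cells with 207662132 UMIs remained. The median cell had 16113 UMIs with THP and 17223 with vehicle, and 38 kept barcodes occurred in both libraries. Values are UMIs per 1e6 UMIs of the library or gate (CPM), and ratios are log2 ratios of CPM + 1, THP over vehicle. Across the 8012 genes that reached 10 CPM in 1 library or both, the median ratio was -0.18, so a gene at 0 lay above the middle of all genes.

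Cxcl16 was higher in the THP library, Ccl9 was higher by less, and Ccl6 was near the same level in both. Cxcl16 stood at 199 CPM (197 to 201) with THP and 81.9 CPM (80.6 to 83.1) with vehicle, from 44745 and 17000 UMIs, which is 2.43-fold (log2 ratio 1.27). Its ratio was the 55th highest of the 8012 genes, at the percentile 99.3. Ccl9 stood at 651 CPM (648 to 655) with THP and 479.6 CPM (477 to 482.5) with vehicle, from 146440 and 99585 UMIs. That is 1.36-fold (log2 ratio 0.44), at the percentile 96.3. Ccl6 stood at 275 CPM (273 to 277) with THP and 271 CPM (269 to 274) with vehicle, from 61811 and 56375 UMIs, a log2 ratio of 0.02 at the percentile 69.4. Of the 3 genes, 1 passed the size rule of 10 CPM and 2-fold upwards, a rule passed by 0.911% of all genes, and none passed it downwards, where 2.97% of all genes did.

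**Figure D1:**
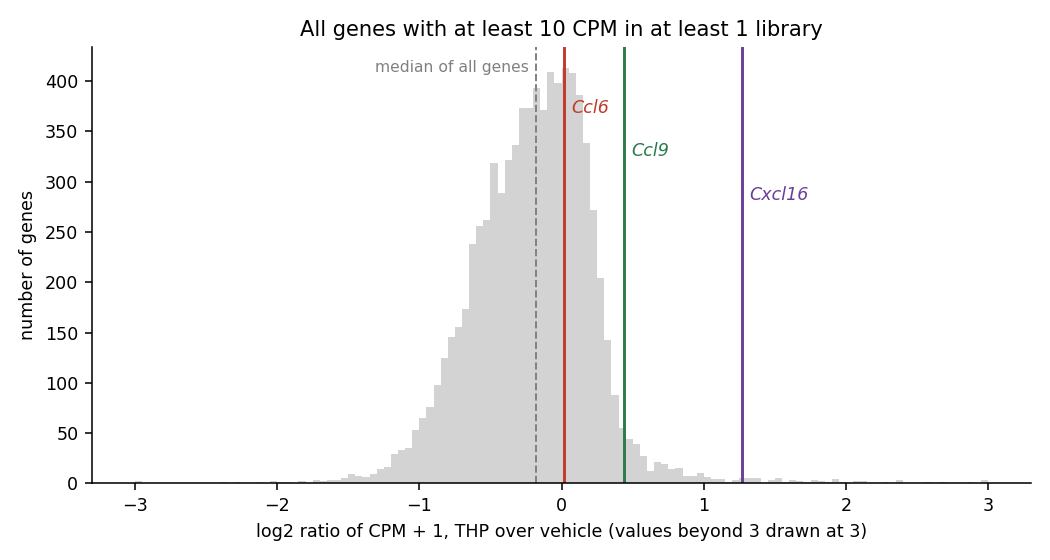
Histogram of the log2 ratio of CPM + 1, THP over vehicle (x axis), for the 8012 genes that reached 10 CPM in 1 library or both (y axis, number of genes). Vertical lines mark the median of all genes (-0.18, dashed), Ccl6 (0.02), Ccl9 (0.44) and Cxcl16 (1.27); Ccl6 lies within the bulk of genes and Cxcl16 in its sparse upper tail.

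The share of cells with at least 1 UMI gave the same picture. It was 60.6% (59.7 to 61.5) with THP and 40.6% (39.6 to 41.5) with vehicle for Cxcl16, 77.1% and 70.6% for Ccl9, and 52.2% and 50.6% for Ccl6. With every cell thinned to 1000 UMIs, the shares were 13.8% and 6.01% for Cxcl16, 33.8% and 25.6% for Ccl9, and 16.2% and 17.0% for Ccl6, so that the small difference in Ccl6 changed direction.

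The direction of Ccl6 also depended on how cells were weighted. Its log2 ratio was -0.33 when each cell had equal weight and -0.16 with the same mix of gated types in both libraries. Under TMM scaling, which moved the median of all genes to 0.11, it was 0.30. Cxcl16 stayed between 1.00 and 1.55 and Ccl9 between 0.32 and 0.73 under these and the other alternatives tried, and with the same mix of types Cxcl16 fell just short of 2-fold.

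Marker genes placed the cells in types, since the cultures labelled as macrophages held other marrow cells. A cell entered a gate when at least 3 of its markers had at least 2 UMIs each. The macrophage gate (Adgre1, C1qa, C1qb, C1qc, Mrc1, Mertk, Csf1r, Cd68) held 45.7% of THP cells and 32.3% of vehicle cells. The immature neutrophil gate (Ltf, Camp, Ngp and others) held 12.4% and 17.3%, the neutrophil gate (Retnlg, Cxcr2, Ly6g and others) 3.06% and 5.24%, the myeloid progenitor gate (Mpo, Elane, Ctsg and others) 8.21% and 11.3%, and the monocyte gate (Ly6c2, Vcan, Ccr2 and others) 8.33% and 12.4%. A gate of dendritic cell markers took 5.79% and 6.51% through the MHC class II genes H2-Aa, H2-Ab1, H2-Eb1 and Cd74. It is called the MHC class II gate here, since Xcr1 and Cd209a were under 10 CPM in it. Other markers of its list went the other way. With THP and vehicle, Ciita had 123 and 157 CPM, against 5.05 in other cells. Ccr7 had 12.5 and 20.8 CPM against 0.418, and Zbtb46 had 9.33 and 13.99 CPM against 0.586. Flt3 had 5.51 and 10.2 CPM against 0.430, and Cd209a itself 3.48 and 6.66 CPM against 0.109. Whether the cells of this gate are dendritic cells was not tested. A gate of osteoclast genes took 1.52% and 1.48% through Mmp12, Dcstamp, Atp6v0d2 and Acp5. Calcr, the calcitonin receptor of mature osteoclasts, was at 0 there, and the gate is called osteoclast-like. The stromal gate (Col1a1, Sparc and others) held 71 THP cells and 62 vehicle cells, the fewest of the 8 gates used. Of all kept cells, 9.67% and 6.79% fell in no gate, and 3.57% and 5.49% tied between gates. Cells of the B cell and the T or NK cell gates were pooled as a measure of free RNA and doublets. They numbered 88 with THP and 59 with vehicle, and are not known as a main source of these chemokines. Of the B cell gate, 28 of 64 THP cells and 11 of 44 vehicle cells passed no other gate. In the T or NK cell gate these were 22 of 24 and 11 of 15. Over the pooled cells, the variance of Ccl9 was 19.95 times the mean with THP and 23.5 times with vehicle. For Ccl6 it was 13.9 and 4.61 times, and for Cxcl16 5.66 and 0.966 times. Where it exceeds 1, the counting intervals of this background are too narrow.

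Most UMIs of each gene came from the macrophage gate. Its share was 83.1% of all Cxcl16 UMIs with THP and 79.7% with vehicle. The shares were 71.8% and 57.8% for Ccl9 and 73.0% and 61.5% for Ccl6. They exceed the macrophage gate's share of cells in both libraries, but its cells were also deeper. Their median was 21704 UMIs with THP and 23946 with vehicle, against 16113 and 17223 over all kept cells. With THP the gate had 315 CPM of Ccl6, 736 of Ccl9 and 260 of Cxcl16, against 275, 651 and 199 over all kept cells. With vehicle it had 358, 594 and 140, against 271, 479.6 and 81.9. The gate itself was larger in the THP library. The values with an equal mix of types, above, are those that hold the gate shares constant.

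**Figure D2:**
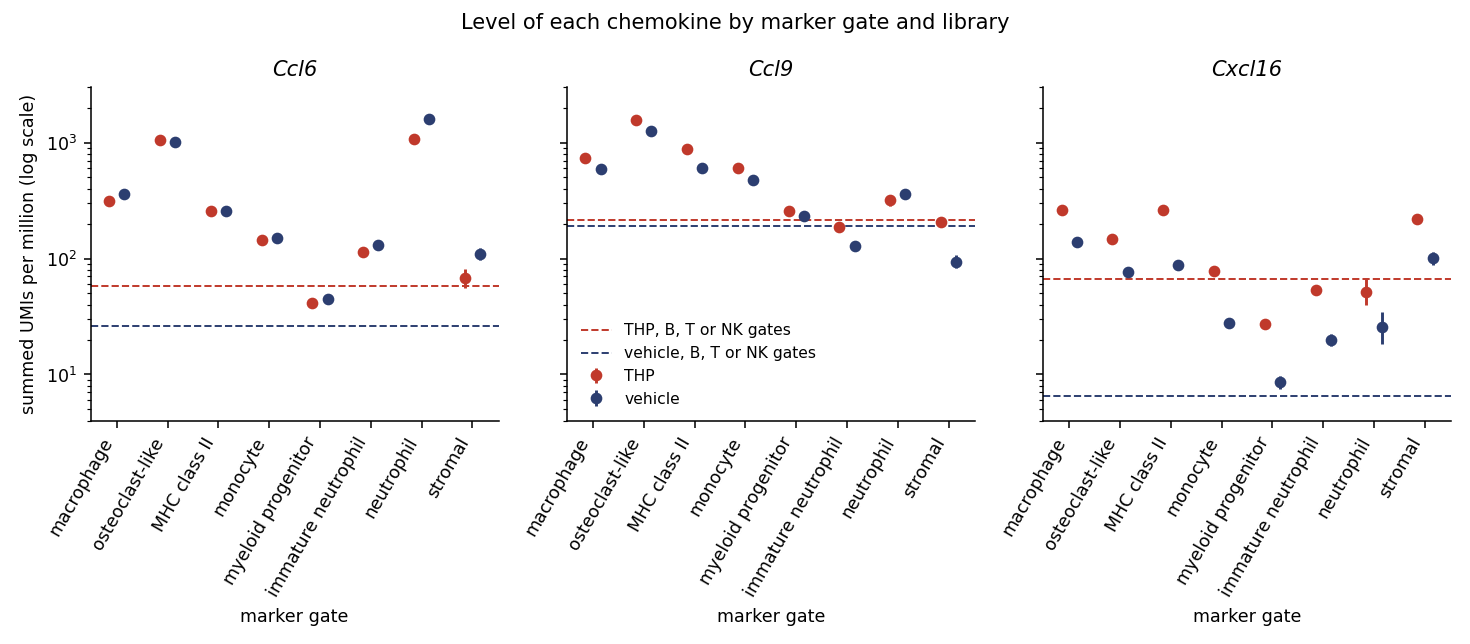
CPM of Ccl6, Ccl9 and Cxcl16 (y axis, log scale) in the 8 marker gates (x axis) in the THP library (red) and the vehicle library (blue). Points are CPM of summed UMIs with 95% Poisson intervals, and dashed lines give the pooled B, T or NK cells of each library. Ccl6 is highest in neutrophils and osteoclast-like cells, Ccl9 in osteoclast-like cells, and red points lie above blue ones for Cxcl16 in every gate.

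Ccl6 was highest in 2 unlike cell types. In the neutrophil gate it stood at 1072 CPM (1014 to 1133) with THP and 1601 CPM (1540 to 1663) with vehicle. In the osteoclast-like gate it stood at 1062 CPM (1034 to 1091) with THP and 1002 CPM (974.9 to 1030) with vehicle. With THP these 2 gates could not be ranked by counting error, while with vehicle the neutrophil gate was higher. This order depended on how types were drawn: in types named from clusters, neutrophils had 620.2 CPM and 656 CPM and osteoclast-like cells 1201 CPM and 1169.7 CPM. The share of neutrophil-gate cells with a Ccl6 UMI was 79.5% with THP and 87.3% with vehicle, although their median depth was only 2286 and 2005 UMIs. In the pooled B, T or NK cells, with median depths of 2857 and 3544 UMIs, that share was 7.95% and 5.08%.

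The other gates followed in the same order in both libraries. Ccl6 had 315 CPM with THP and 358 CPM with vehicle in the macrophage gate, and 259 CPM and 255 CPM in the MHC class II gate. It had 145 CPM and 150.2 CPM in monocytes. Immature neutrophils had 115 CPM and 131 CPM, far under the neutrophil gate. The stromal gate had 67.8 CPM and 110.4 CPM, and myeloid progenitors were lowest with 41.2 CPM and 44.8 CPM, a range from highest to lowest of 26.0-fold with THP and 35.8-fold with vehicle. The pooled B, T or NK cells had 58.2 CPM (38.0 to 85.3) with THP and 26.1 CPM (11.3 to 51.4) with vehicle, so the progenitor level was not distinguishable from that background in either library, nor the stromal level with THP. Many cells passed more than 1 gate and were placed by the share of each list found, and the middle of this order rested on them. Among cells that passed 1 gate only, the MHC class II gate had 102 CPM with THP and 82.3 CPM with vehicle, below monocytes at 113 CPM and 104 CPM. Immature neutrophils had 39.2 CPM and 33.3 CPM there. Such cells were few in some gates, 163 of 995 and 94 of 1237 for myeloid progenitors.

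Between the libraries, Ccl6 was higher with THP beyond counting error in 1 of the 8 gates and lower in 4. The largest difference with many UMIs was that of neutrophils, a log2 ratio of -0.58 (-0.68 to -0.48), but the median gene in that gate also lay at -0.39. In the macrophage gate the ratio was -0.18 (-0.20 to -0.16) against a gate median of -0.16, and under TMM scaling it became 0.10. The osteoclast-like gate had 0.08 (0.03 to 0.14) against a gate median of -0.18. The stromal gate had -0.69 (-1.03 to -0.39), from 118 and 274 UMIs. With vehicle, 32.3% of its 62 cells held these UMIs, and the variance over cells was 91.9 times the mean. Counting intervals do not cover such a spread. Without the top 5% of cells by UMIs, immature neutrophils went from -0.19 to -0.034, macrophages from -0.18 to -0.081 and neutrophils from -0.58 to -0.61. None of the Ccl6 ratios reached 2-fold in either direction.

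Ccl9, the other Ccr1 ligand, was highest in the osteoclast-like gate, at 1562 CPM (1528 to 1597) with THP and 1255 CPM (1225 to 1287) with vehicle. The MHC class II gate came next with THP at 885 CPM (866 to 905), ahead of macrophages at 736 CPM (731 to 740). With vehicle these gates, at 607 CPM (593 to 621) and 594 CPM (589 to 599), could not be ranked by counting error. Monocytes had 609 CPM with THP and 479.5 CPM with vehicle. Ccl9 thus spanned the monocyte, macrophage and osteoclast-like gates at a level within 3-fold, whereas Ccl6 differed more between them.

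In neutrophils Ccl9 was low where Ccl6 was high. It had 318 CPM (287 to 352) with THP and 357 CPM (329 to 387) with vehicle in the neutrophil gate, with a UMI in 34.8% and 26.6% of cells. The pooled B, T or NK cells had 215 CPM (174 to 262) and 189 CPM (144 to 245), with a UMI in 18.2% and 15.3% of cells. Myeloid progenitors had 256 CPM and 235 CPM, immature neutrophils 189 CPM and 127 CPM, and the stromal gate 206 CPM and 93.8 CPM. None of these 3 levels exceeded the interval of the pooled lymphoid cells in its own library. In progenitors, however, a Ccl9 UMI was found in 75.6% of THP cells and 80.4% of vehicle cells, at median depths of 17105 and 21123 UMIs. With each cell thinned to 1000 UMIs, these shares were 17.2% (14.9 to 19.7) and 16.1% (14.1 to 18.3), against 7.95% (3.26 to 15.7) and 1.69% (0.043 to 9.09) in the lymphoid cells. The intervals of the thinned shares overlapped with THP and did not overlap with vehicle, where the lymphoid share rests on 59 cells. What part background has in the progenitor level was not tested.

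Ccl9 was higher in the THP library in 7 of the 8 gates, each beyond counting error. The log2 ratio was 0.54 (0.50 to 0.59) in the MHC class II gate, 0.34 (0.31 to 0.38) in monocytes, 0.32 (0.27 to 0.36) in the osteoclast-like gate and 0.31 (0.29 to 0.32) in macrophages. These lay at the percentiles 96.8, 94.3, 90.9 and 93.3 of the genes in each gate. Immature neutrophils had 0.56 and myeloid progenitors 0.12. The stromal gate had 1.13 (0.89 to 1.38), from 359 and 233 UMIs at a background level. Neutrophils had -0.17 (-0.36 to 0.02), and under TMM scaling 0.12.

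Cxcl16, the transmembrane chemokine, was highest with THP in the MHC class II gate at 264 CPM (254 to 275) and in macrophages at 260.2 CPM (258 to 263), which counting error did not separate. With vehicle macrophages led at 140 CPM (138 to 142), and the MHC class II gate had 87.6 CPM (82.4 to 93.1). The stromal gate, drawn on markers such as Col1a1 and Sparc, had 219 CPM (198 to 242) with THP and 100.3 CPM (88.2 to 114) with vehicle. A UMI was found in 88.7% and 83.9% of its cells. Only 43 of its 71 THP cells and 30 of its 62 vehicle cells passed no other gate. What part doublets have in the stromal level was not tested. The osteoclast-like gate had 147 CPM and 76.7 CPM. Cxcl16 was thus lower than in macrophages in the gate that had the most Ccl9.

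The remaining gates had little Cxcl16. Monocytes had 77.5 CPM with THP and 27.7 CPM with vehicle, immature neutrophils 53.5 CPM and 19.9 CPM, neutrophils 51.9 CPM and 25.6 CPM, and myeloid progenitors 27.4 CPM and 8.60 CPM. The pooled B, T or NK cells had 67.2 CPM (45.3 to 95.9) with THP, from 30 UMIs, and 6.53 CPM (0.79 to 23.6) with vehicle, from 2 UMIs. With THP none of these 4 gates exceeded the interval of that background, and with vehicle the levels of monocytes and neutrophils did, although the neutrophil interval (18.4 to 34.5) overlapped that of the background. What part free RNA or doublets have in the difference of these gates was not tested.

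Cxcl16 was higher with THP in 8 of 8 gates, each beyond counting error. The log2 ratio was 0.89 (0.87 to 0.92) in macrophages, which is 1.86-fold, from 37194 and 13550 UMIs. It was 1.58 (1.49 to 1.70) in the MHC class II gate, which is 3.02-fold, from 2352 and 1052 UMIs. The osteoclast-like gate had 0.93 (0.76 to 1.12) and the stromal gate 1.12 (0.89 to 1.36). Monocytes had 1.45, immature neutrophils 1.38, neutrophils 0.99 and myeloid progenitors 1.57. The lowest of its percentiles among the genes of a gate was 97.1, in neutrophils. The difference between macrophages and the MHC class II gate was larger than counting error, since the intervals of the ratios did not overlap, but it was not tested over samples. It was much smaller in the types named from clusters, where the ratio was 0.92 in macrophages and 1.04 in the MHC class II type.

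Read against the size rule, Cxcl16 was called 2-fold higher in 5 gates. The share of all genes called so was 1.11% in the MHC class II gate, 0.901% in monocytes, 1.46% in immature neutrophils, 0.709% in myeloid progenitors and 3.6% in the stromal gate, where Ccl9 was called as well. In the macrophage (0.964%), osteoclast-like (0.738%) and neutrophil (2.91%) gates none of the 3 genes was called higher. None was called lower in any gate. The share of all genes called lower was 2.31% in macrophages, 2.33% in monocytes, 2.32% in myeloid progenitors, 3.9% in the osteoclast-like gate, 4.57% in immature neutrophils, 5.44% in the MHC class II gate, 6.66% in the stromal gate and 18.3% in neutrophils.

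**Figure D3:**
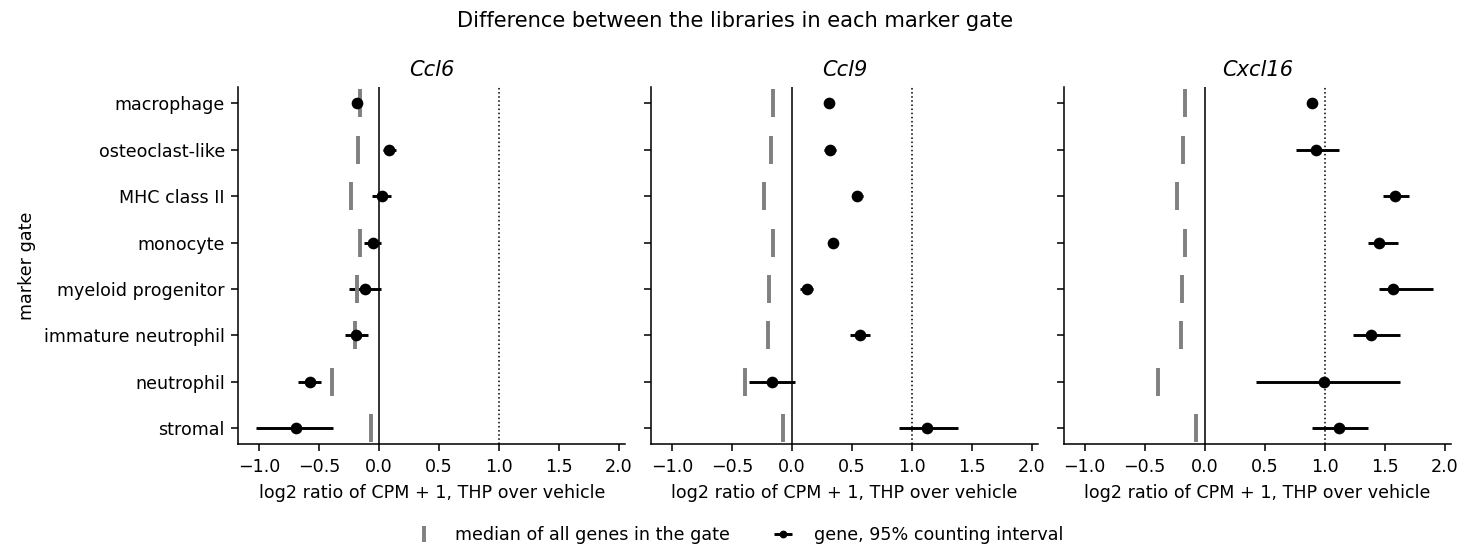
Log2 ratio of CPM + 1, THP over vehicle (x axis), of Ccl6, Ccl9 and Cxcl16 in the 8 marker gates (y axis), with 95% counting intervals. Grey ticks give the median of all genes in the gate, the solid line is 0 and the dotted line is 2-fold. Cxcl16 lies right of 0 in 8 gates, Ccl9 in 7 and Ccl6 in 2.

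The 3 genes were spread over single macrophages in different ways. Macrophage-gate cells with at least 10000 UMIs, 5195 with THP and 3347 with vehicle, were thinned to that depth. Ccl6 was concentrated in few cells: 48.4% of THP cells and 46.6% of vehicle cells had none, while the tenth of cells with most held 68.4% and 67.3% of its UMIs. Its highest cell had 101 UMIs with THP and 96 with vehicle, against a median of 1 in both. The Fano factor (variance over mean) was 19.6 and 19.3.

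Ccl9 was found in nearly every macrophage. No Ccl9 UMI was drawn in 4.72% of cells (4.16 to 5.33) with THP and 8.07% (7.17 to 9.04) with vehicle, and the median was 6 UMIs with THP and 4 with vehicle. Its Fano factor was 7.41 and 6.35. The whole distribution lay higher with THP, with quartiles of 3 and 10 UMIs against 2 and 8.

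Cxcl16 was the most even of the 3. Its Fano factor was 1.497 with THP and 1.43 with vehicle, near the value of 1 that pure counting gives. No UMI was drawn in 12.2% of cells (11.3 to 13.1) with THP and 29.6% (28.1 to 31.2) with vehicle, the median was 2 and 1 UMIs, and the highest cell had 14 and 13. The higher Cxcl16 level with THP was thus spread over the gate rather than held by a few cells.

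**Figure D4:**
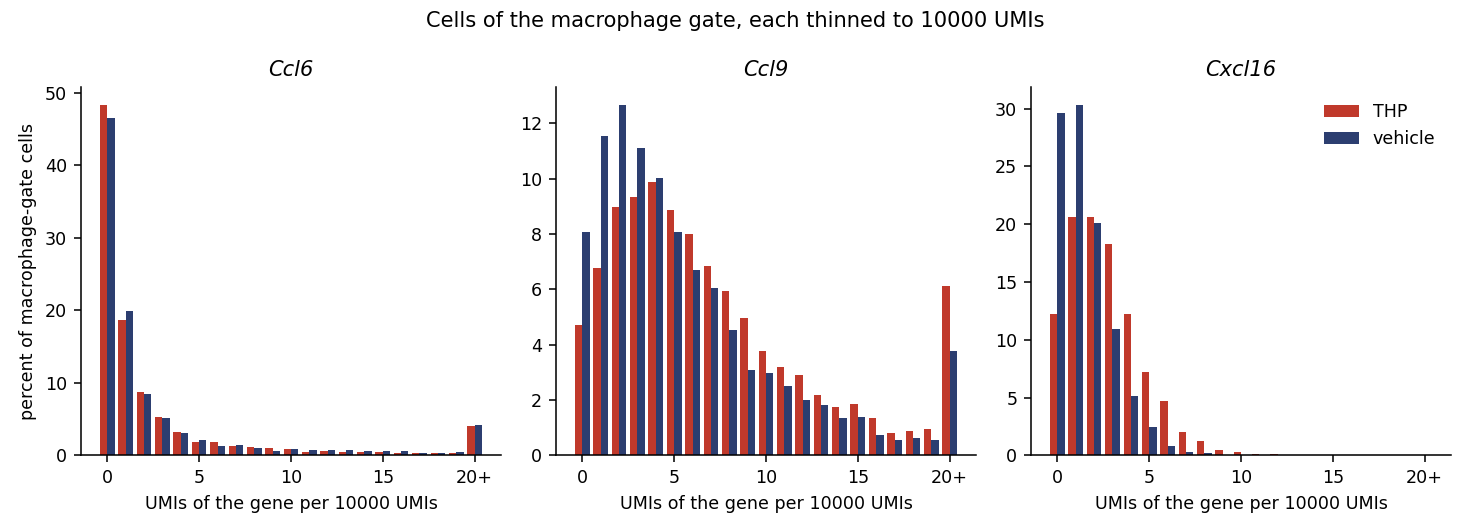
Percent of macrophage-gate cells (y axis) by their UMIs of Ccl6, Ccl9 or Cxcl16 after each cell was thinned to 10000 UMIs (x axis, 20 or more pooled), with THP (red, 5195 cells) and vehicle (blue, 3347 cells). Near 48.4% and 46.6% of cells had no Ccl6, and the cells with no Cxcl16 were 12.2% with THP and 29.6% with vehicle.

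Within the macrophage gate, Ccl6 followed Mmp12, the macrophage elastase, which is not among that gate's markers. It is a marker of the osteoclast-like gate, so it could move cells from the macrophage gate to that gate or to a tie. Cells with 10 or more Mmp12 UMIs per 10000 had 1226 CPM of Ccl6 (1199 to 1254) with THP and 1068 CPM (1041 to 1094) with vehicle. Cells with 1 to 9 had 370.1 CPM (360.2 to 380.2) and 305 CPM (294 to 315). Cells with none had 114 CPM (110.1 to 118) and 101 CPM (96.5 to 106). The highest group exceeded the lowest 10.8-fold with THP and 10.6-fold with vehicle, and was close to the osteoclast-like gate. In each of these 3 groups Ccl6 was higher with THP, by 1.15-fold, 1.21-fold and 1.12-fold, although the whole gate was lower. The group with 10 or more Mmp12 UMIs made up 11.9% of the THP cells and 17.4% of the vehicle cells.

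Ccl9 followed Mmp12 less steeply. It had 1442 CPM with THP and 1129.9 CPM with vehicle in the group with 10 or more Mmp12 UMIs, and 625 CPM and 434 CPM in the group with none, a span of 2.31-fold and 2.60-fold. Cxcl16 was lowest in the group with 10 or more Mmp12 UMIs, at 204 CPM with THP and 126 CPM with vehicle, but did not fall steadily. With THP it had 272 CPM in the group with none and 271 CPM in the group with 1 to 9. With vehicle it had 142 CPM (136.5 to 148) in the group with none and 162.5 CPM (155 to 170) in the group with 1 to 9.

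C1q, the complement component that marks mature macrophages, ordered the genes differently. From cells with no UMI of C1qa, C1qb and C1qc to cells with 10 or more, Ccl9 went from 931 CPM to 612 CPM with THP and from 744 CPM to 403 CPM with vehicle. Cxcl16 went up, from 247 CPM to 284 CPM with THP and from 127 CPM to 172 CPM with vehicle. Ccl6 went down, from 419 CPM to 269 CPM and from 446 CPM to 209.7 CPM. C1q genes are among the gate's own markers, so cells without them entered through the other markers. Cxcl16 and Ccl9 were higher with THP in each of the 3 C1q groups, by 1.65-fold to 1.95-fold and 1.21-fold to 1.52-fold. Ccl6 was not: THP over vehicle was 0.94-fold without C1q UMIs, 0.82-fold with 1 to 9 and 1.28-fold with 10 or more. In macrophage-gate cells grouped by Mrc1, Ccl6 was 0.92-fold without a UMI and 0.95-fold with 1 or more. Its higher value in each Mmp12 group was thus not found in these other groupings.

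**Figure D5:**
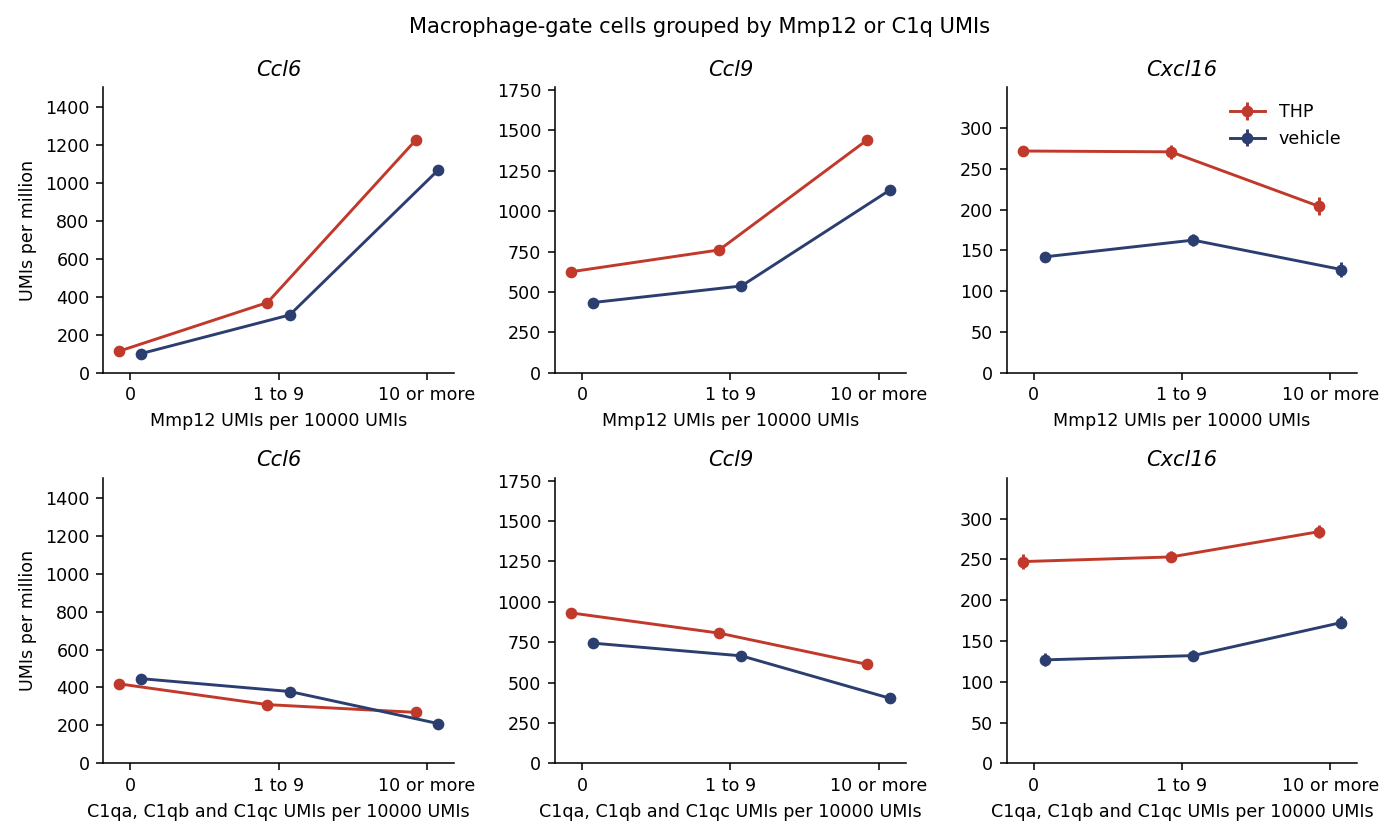
CPM of Ccl6, Ccl9 and Cxcl16 (y axis, from 0) in macrophage-gate cells thinned to 10000 UMIs and grouped by Mmp12 UMIs (upper row) or summed C1qa, C1qb and C1qc UMIs (lower row), with THP (red) and vehicle (blue) and 95% Poisson intervals. Ccl6 climbs from 114 and 101 CPM without Mmp12 to 1226 and 1068 CPM with 10 or more Mmp12 UMIs, while Cxcl16 differs more between the libraries than between the groups.

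Across the same thinned macrophages, Ccl6 and Ccl9 went together weakly, with a Spearman rho of 0.36 with THP and 0.38 with vehicle. Cxcl16 was near unrelated to both, with rho between -0.07 and 0.00. Cells of 1 library share its dish and free RNA, so these values describe the libraries only. All 3 genes had a UMI in 43.5% of THP cells and 35.4% of vehicle cells, and none had one in 0.42% and 1.31%.

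Across 17 profiles of log2(CPM + 1) from 9 gates and both libraries, the Pearson r was 0.59 between Ccl6 and Ccl9, 0.43 between Ccl9 and Cxcl16, and 0.23 between Ccl6 and Cxcl16. The 5 genes most like Ccl6 were Cd300lb (r = 0.94), Pla2g7, Lilr4b, Gm5150 and Sgms1. Those most like Ccl9 were Lat2 (r = 0.94), Guca1a, Cst3, Ucp2 and Unc93b1, of which Cst3 encodes the protease inhibitor cystatin C. Those most like Cxcl16 were Slc39a1 (r = 0.94), Fhl3, H2-K1, B2m and Rgl1, of which H2-K1 and B2m encode the heavy and the light chain of MHC class I. The profiles share 2 libraries and the gates' depth differs, so r describes likeness in this culture only.

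Of the receptors, Ccr1 stood out among those measured. The list held 6 receptors of these chemokines or their close relatives, of which 3 had at least 10 CPM; 1 was called lower, beside 2.97% of all genes, and none higher. Ccr1, the receptor of both Ccl6 and Ccl9, had 67.7 CPM (66.6 to 68.8) with THP and 147 CPM (146 to 149) with vehicle, a log2 ratio of -1.11. Under TMM scaling it was -0.83, short of 2-fold. Ccr1 was highest in neutrophils, with 277 CPM and 519.6 CPM, and low in macrophages, with 25.4 CPM and 62.8 CPM. It was lower with THP, with separate CPM intervals of the 2 libraries, in every gate used except the osteoclast-like and stromal ones. In the osteoclast-like gate Ccr1 had 93.0 CPM (84.7 to 102) with THP and 110 CPM (101 to 120) with vehicle, lower with overlapping intervals. The stromal gate had 17.8 CPM with THP and 14.9 CPM with vehicle. Neutrophils thus had high Ccl6 and the most Ccr1 of the gates in both libraries.

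Ccr3, a receptor known from eosinophils, had 7.81 CPM with THP and 11.3 CPM with vehicle (log2 ratio -0.48). Of the gates used, it was highest in macrophages, with 11.9 CPM (11.3 to 12.4) with THP and 23.2 CPM (22.3 to 24.2) with vehicle. The stromal gate came next with 5.17 CPM and 4.83 CPM. Cxcr6, the receptor of Cxcl16 on T cells, had only 201 UMIs with THP and 212 with vehicle, or 0.89 CPM and 1.02 CPM.

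Of 5 genes for the shedding of Cxcl16, 4 had at least 10 CPM. Adam10, the protease of constitutive shedding, had 71.1 CPM with THP and 114 CPM with vehicle (log2 ratio -0.68). Adam17, the protease of induced shedding, had 149 CPM and 129 CPM (0.20), and in macrophages 180.3 CPM and 180.2 CPM. Rhbdf2, which carries Adam17 to the surface, had 26.9 CPM and 18.3 CPM (0.54). Timp3, an inhibitor of both proteases, was the only one called, 2-fold lower at 8.73 CPM and 31.4 CPM (-1.74), beside 2.97% of all genes. It was a stromal gene here, with 791 CPM and 2356 CPM in that gate and under 5 CPM in every other gate used. In macrophages Adam10 had 77.8 CPM with THP and 127 CPM with vehicle, so the transcript of this Cxcl16 protease was lower in the library in which Cxcl16 was higher.

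Set beside other chemokines, the ratios of the 3 genes were moderate or small. Of 35 other chemokine ligands listed, 32 were in the tables and 13 had at least 10 CPM. Of these 13, 8 were called 2-fold higher with THP, beside 0.911% of all genes, and none lower, and their median log2 ratio was 1.92. Cxcl1, a neutrophil attractant, had 54.3 CPM with THP and 5.50 CPM with vehicle (3.09). Ccl4 had 229 CPM and 30.2 CPM (2.88), and Ccl3 184 CPM and 34.5 CPM (2.39). Ccl7, which shares Ccr1 with these, had 276 CPM and 71.3 CPM (1.94). Pf4 and Ccl2, which were already abundant with vehicle at 755 CPM and 471 CPM, had 1425 CPM and 927 CPM with THP (0.92 and 0.97), and Cxcl14 had 203 CPM and 183 CPM (0.15). Cxcl16 (1.27) lay between these abundant chemokines and the strongly higher ones, while Ccl9 (0.44) lay above only Cxcl14, Ccl5 (-0.21) and Ccl25 (-0.27) of the 13, and Ccl6 (0.02) above only the last 2. Scaled by TMM, Ccl2 (1.26) and Pf4 (1.2) also passed 2-fold, which made 10 of 13, and Ccl5 lay at 0.060 and Ccl25 at -0.00285.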

How the data were processed

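The deposited values are raw UMI counts per gene and cell barcode, per the file headers, which give software version 3.1.0 and matrix format 2. Cell Ranger, STAR, bcl2fastq and the build mm10 are named in the submitters' processing notes, with no versions. The sources used here give no annotation release, strand setting or doublet removal. The count tables were used as deposited.

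Barcodes were kept with 500 detected genes, 1000 UMIs and no more than 10% mitochondrial UMIs. UMIs were summed per library and gate and divided by the total (CPM), with exact Poisson 95% intervals, exact (Clopper-Pearson) binomial intervals for shares, and a conditional exact interval for ratios. A gene was called with at least 10 CPM in 1 library and a 2-fold ratio of CPM + 1. No p-value was computed, as cells are not replicates. Each cell took the gate with the highest share of its markers at 2 UMIs or more (at least 3 markers). Of 11 gates, 8 had at least 50 cells in each library and were used. Doublets were kept, and no caller was run. Thinning drew UMIs without replacement to 1000 or 10000 per cell. Profiles for the genes most like a member were those of gates with enough cells, and the 5 highest Pearson r were named. Promoter sequences are RefSeq's, aligned with Biopython 1.88, and coordinates are 1-based.

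The 3 genes, the gene lists and the markers were chosen with earlier results of these data known. All 3 genes are printed, and listed genes could be named at 10 CPM; 1 of them is not reported here. Alternatives were TMM and RLE factors (edgeR 4.0.16), all barcodes, the top 5% of cells by UMIs left out, equal weight per cell, an equal mix of types, other pseudocount, fold and level limits, 1 marker more, and Leiden clusters (scanpy 1.11.5) built without chemokine genes. A correction for transcript length, cells passing 1 gate only, and TMM scaling of the gates and listed genes were added after seeing the data. This scaling used the factors of the whole libraries, and no factor was computed within a gate. Interval code was tested on simulated counts.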

Additional observations from a re-analysis of the deposited data

Results flagged for a closer look

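Ccl6 did not go the same way in all gates: its log2 ratio was 0.084 in the osteoclast-like gate, and -0.58 in neutrophils, -0.19 in immature neutrophils, -0.18 in macrophages and -0.69 in the stromal gate, each beyond counting error. The difference between the gates was not tested, and the values of immature neutrophils and macrophages changed sign with the scaling. The stromal value rests on 118 and 274 UMIs, which were spread over the cells far more unevenly than counting error gives.

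The barcodes that failed the cell filter, 1070 (8.11%) with THP and 606 (5.23%) with vehicle, also held the chemokines. In them Ccl9 had 431 CPM (405 to 459) with THP and 285 CPM (258 to 314) with vehicle. Cxcl16 had 124 CPM (109.7 to 139) and 35.7 CPM (26.6 to 46.9). Ccl6 had 223 CPM (204 to 243) and 257 CPM (232 to 285). Both Ccl9 and Cxcl16 were thus higher with THP outside the analysed cells too.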

How the results depend on the processing

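The log2 ratio of Ccl6 over all kept cells (0.02) was 0.30 with TMM and 0.30 with RLE factors, 0.17 without the top 5% of cells, -0.33 with equal weight per cell, -0.16 with the same mix of types and -0.086 less the median of genes of like transcript length. In the same order, Ccl9 (0.44) had 0.73, 0.72, 0.48, 0.48, 0.32 and 0.66, and Cxcl16 (1.27) had 1.55, 1.55, 1.30, 1.33, 1.00 and 1.33. All barcodes and a pseudocount of 0.1 CPM left the 3 values within counting error. Genes past 2-fold numbered 311 (73 higher, 238 lower), and 1574 (187 and 1387) at 1.5-fold, 425 with a minimum of 1 CPM, and 207 (138 and 69) with TMM as with RLE factors, so the scaling turned the majority from lower to higher.

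Ccl6 was higher with THP in 2 of 8 gates, 6 of 8 types named from clusters, 4 of 7 gates without the top 5% of cells and 6 of 8 with TMM factors. Ccl9 was higher in 7 of 8 gates and in 4 of 6 with cells of 1 gate only. Cxcl16 was higher in every gate and alternative, 37 of 37 values, from 0.69 to 2.14. Ccl6 turned to 0.29 (clusters), 0.23 (cells of 1 gate only) and 0.094 (TMM) in immature neutrophils and to 0.44 (clusters) and 0.10 (TMM) in macrophages, Ccl9 to -0.085 in myeloid progenitors (cells of 1 gate only), and Ccl5 to 0.060 (TMM). The cause was not tested; the largest macrophage cluster held 4359 THP and 98 vehicle cells. Clusters of 1 name also differed by library in monocytes (123 THP and 1494 vehicle cells, 1314 and 62), neutrophils (86 and 1733, 1254 and 259) and immature neutrophils (965 and 50, 16 and 792), so the 2 libraries are compared there over different clusters. Of the gated cells, 45.7% of immature neutrophils and 51.1% of the MHC class II gate lay in clusters of that name. By clusters, Ccl6 was lower in neutrophils than in osteoclast-like cells, and the Cxcl16 ratios of macrophages and the MHC class II type lay close together. The stromal gate without the top 5% of cells, and the osteoclast-like and stromal gates with cells of 1 gate only, had under 50 cells and gave no value.

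No paired analysis was possible because each group has 1 library. Few cells limit the stromal values (71 with THP and 62 with vehicle), and few UMIs limit the neutrophil and lymphoid ones. Cxcl16 rests on 61 and 42 UMIs in neutrophils and on 2 UMIs in the vehicle's lymphoid cells.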
